A study of Mus musculus with 16 samples.

Results

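The genes described here encode enzymes that attach water-soluble groups to drugs, steroids and bile acids in the liver, and enzymes that hold peroxides, superoxide and protein thiols in check. They comprise the sulfotransferases, UDP-glucuronosyltransferases, carboxylesterases, Nat8-type acetyltransferases, the theta, kappa, zeta, omega and microsomal glutathione S-transferases, glutathione synthetase, and the glutathione peroxidases, peroxiredoxins, thioredoxins, superoxide dismutases, catalase and heme oxygenase. They were chosen by gene symbol alone, from a list of symbol stems, among probes with a single gene symbol, and Sult3a1 was left out. The stem Nat had to be followed by a digit. In all 33 genes, read by 36 probes, met the rule, out of 8923 genes and unnamed probes (6734 named genes). Ggt1 and Ugdh, which the rule also names, were not analysed here, and a probe that carries the symbols of both Gpx2 and Gpx2-ps1 was not used.

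The treated livers came from 8 females of the APOE3Leiden strain, a transgenic line with a variant of human APOE, bred to C57BL6/JIco and 10 weeks old when feeding began. Their Western-type diet (15 g fat and 0.25 g cholesterol per 100 g) held 0.04% cafestol and 0.02% kahweol by weight, both diterpenes of coffee, and was fed for 4 weeks. The control RNA came from 7 mice with the same transgene on the same diet without diterpenes. Each treated liver was hybridised on 2 two-colour cDNA arrays, with control RNA in Cy3 and treated RNA in Cy5, and no label names a single control mouse. The log2 ratio of the 2 channels was therefore tested against 0 over the 8 treated mice, and the spread among control mice is not in that test.

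No label states which channel was divided by which, so every sign below is the deposited one, and no direction of the diet effect is drawn from it. As a landmark, Gstm1, a mu class transferase, lay at -2.48 ± 0.23 (SD, n = 8 mice). In size, each deposited value was the log2 of a fold difference rounded to 1 decimal. The smallest step away from 0 was therefore 0.14 on the log2 scale. The arrays had values for 8094 to 9314 of 9596 probes and a median of 0 each. A ratio carries no expression level, so the labelled tissue could not be checked by the level of liver markers. In whole liver, fewer cells of a type and less RNA per cell cannot be told apart.

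Conjugation works in steps. Carboxylesterases open ester bonds, sulfotransferases and glucuronosyltransferases add sulfate or glucuronic acid from activated donors, and glutathione S-transferases add glutathione, whose conjugates are later trimmed and acetylated to mercapturic acids. Some redox enzymes draw on thiols: glutathione peroxidases spend glutathione, while peroxiredoxins are kept reduced by thioredoxin and thioredoxin reductase at the cost of NADPH. Many of these genes respond to the transcription factor NRF2, which binds the antioxidant response element.

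Of the 33 genes 32 had values in at least 6 mice and were tested. A gene is called here when its adjusted p was under 0.05 (limma, Benjamini-Hochberg over 8348 genes and unnamed probes). The 32 split evenly: 10 were called positive, 10 negative and 12 were not called. Of all 8348 features 43.4% were called, 18.0% positive and 25.4% negative. The counts in groups and lists below stand beside these shares. The median log2 ratio was 0.03 over the 32 genes and -0.02 over all features, and the median size was 0.17 and 0.09. A difference of 1.2-fold or more was found for 8 of the 32, and 1, Nat8f2, exceeded 1.5-fold. The SD over mice ran from 0.07 to 0.28 (median 0.12). The 2 arrays of a mouse read the same value (within 0.001) in 144 of 256 gene and mouse pairs, lay within 0.16 of each other in 246, and differed by at most 0.28. With an added error for the control RNA, taken as 7 mice pooled evenly and as variable as the treated mice, 6 positive and 6 negative calls were left. The 8 genes that lost their call were Sult1b1 (adjusted p = 0.133, limma), Sult5a1 (0.107), Gsto1 (0.194), Prdx2 (0.215), Ugt2b36 (0.0861), Txn1 (0.0598), Sod3 (0.0592) and Cat (0.114).

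In 10 genes the log2 ratio had the same sign in all 8 mice, 5 positive and 5 negative, and all 10 were called (highest adjusted p = 0.00235, limma). How many of all features had 1 sign in all 8 mice was not counted. The values of the 10 genes are given below in the mouse order SY518Z, SY521RL, SY522ROB, SY524ROB+L, then TP4163, TP4168, TP4205, TP4215. A value of 0.07 in size, as in some mice for Hmox1, Txnrd1, Prdx4 and Gstt2, rests on 1 array a rounding step from 0, the other array reading 0. SY and TP are the 2 series of mouse identifiers, 4 mice each, whose meaning no label states.

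Farthest from 0 on the positive side was Nat8f2, a gene of the Nat8 family (Entrez 93673). The human relative NAT8 acetylates cysteine conjugates, the last step to mercapturic acids. Its log2 ratios were 0.65, 0.68, 0.68 and 0.53 in the SY mice, and 0.54, 0.68, 0.83 and 0.79 in the TP mice. Every mouse lay well above the rounding step, and the SY and TP values overlapped. The mean was 0.67 ± 0.10 (SD, n = 8), a 1.59-fold difference (limma, adjusted p = 3.73e-07). Nat8f2 was read by 2 probes, which gave 0.71 ± 0.10 and 0.63 ± 0.12. The other genes that share the stem Nat have different roles and did not pass: the RNA cytidine acetyltransferase Nat10 lay at -0.08 ± 0.10 (adjusted p = 0.113), and Nat8l, which makes N-acetylaspartate, at -0.07 ± 0.07 (adjusted p = 0.0906). Nat8l passed without TP4168 (-0.09, adjusted p = 0.0415).

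The next was a carboxylesterase, Ces3b (Entrez 13909). Its log2 ratios were 0.58, 0.49, 0.38 and 0.49 in the SY mice, and 0.68, 0.58, 0.49 and 0.63 in the TP mice. All 8 were positive and the groups overlapped, with a mean of 0.54 ± 0.10 (limma, adjusted p = 1.44e-06). Ces1d, a mouse triacylglycerol hydrolase that takes part in loading lipid onto very low-density lipoprotein, ranged from -0.14 to 0.63 with a median of 0.14. Its highest value was that of SY518Z, and its mean of 0.17 ± 0.25 did not pass (adjusted p = 0.0715). Without SY522ROB (0.21, adjusted p = 0.0322) or SY524ROB+L (0.20, adjusted p = 0.0434) it passed, as it did with the 16 arrays blocked by mouse (adjusted p = 0.0189), and without SY518Z it was 0.10 (adjusted p = 0.163). Carboxylesterase and Nat8 genes stand in clusters of close copies, and cDNA probes can bind the transcripts of paralogs, so these values may include related genes. Of 7 other hydrolases and monooxygenases tested, 4 were positive, among them the monooxygenases Fmo1 (0.38 ± 0.14) and Fmo5 (0.35 ± 0.36), and 2 negative, with the epoxide hydrolase Ephx1 farthest from 0 (-1.14 ± 0.16). The median of that list was 0.15, and 18.0% of all features were called positive and 25.4% negative.

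The soluble glutathione S-transferases outside the mu, pi and alpha classes were on the positive side. Of 5 tested 4 were called positive and 0 negative (0 also at an unadjusted p under 0.05), with a median of 0.21. Of all features 18.0% were called positive. Gstz1, the zeta class enzyme that isomerises maleylacetoacetate in tyrosine breakdown (Entrez 14874), had log2 ratios of 0.92, 0.49, 0.49 and 0.49 in the SY mice, and 0.38, 0.54, 0.49 and 0.38 in the TP mice. One mouse, SY518Z, stood above the rest, and the other 7 lay between 0.38 and 0.54. The mean was 0.52 ± 0.17 (limma, adjusted p = 2.01e-05), and 0.46 without SY518Z (adjusted p = 6.40e-06). Gstk1, the kappa class enzyme of mitochondria and peroxisomes, had 0.43, 0.26, 0.38 and 0.26 in the SY mice, and 0.14, 0.49, 0.26 and 0.38 in the TP mice. Its groups overlapped around a mean of 0.33 ± 0.11 (adjusted p = 5.79e-05). Gstt2, a theta class enzyme, had 0.49, 0.26, 0.26 and 0.14 in the SY mice, and 0.07, 0.14, 0.20 and 0.14 in the TP mice. SY518Z was again the highest, and the mean was 0.21 ± 0.13 (adjusted p = 0.00182), or 0.17 without that mouse.

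Gsto1, the omega class enzyme with thioltransferase and dehydroascorbate reductase activity, ranged from 0 to 0.38 with a median of 0.10. It averaged 0.13 ± 0.15 (limma, adjusted p = 0.0389), and was not called without SY518Z, SY521RL, TP4168, TP4205 or TP4215 (adjusted p 0.0535 to 0.1). The second theta gene, Gstt1, ranged from -0.14 to 0.43 and averaged 0.11 ± 0.19 (adjusted p = 0.141). The membrane-bound Mgst3, which carries transferase and peroxidase activity (Entrez 66447), lay on the opposite side. Its log2 ratios were -0.13, -0.43, -0.32 and -0.38 in the SY mice, and -0.38, -0.43, -0.20 and -0.26 in the TP mice. All 8 were below 0, and the mean was -0.32 ± 0.11 (adjusted p = 6.08e-05).

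The mu, pi and alpha transferases give the scale of these values. All 5 mu and pi genes tested were negative (median -1.88, range -2.48 to -0.45), with Gstm6 (-1.93 ± 0.20) and Gstp1 (-1.88 ± 0.16) next to Gstm1. Of 3 alpha genes (median -0.85) 2 were negative, Gsta2 (-1.11 ± 0.30) and Gsta4 (-0.85 ± 0.15), and 1 was not called. The plot of transferase classes shows these values together, with the zeta, kappa, theta and omega genes on the other side of 0 and nearer to it. The difference between classes was not tested.

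**Figure D1:**
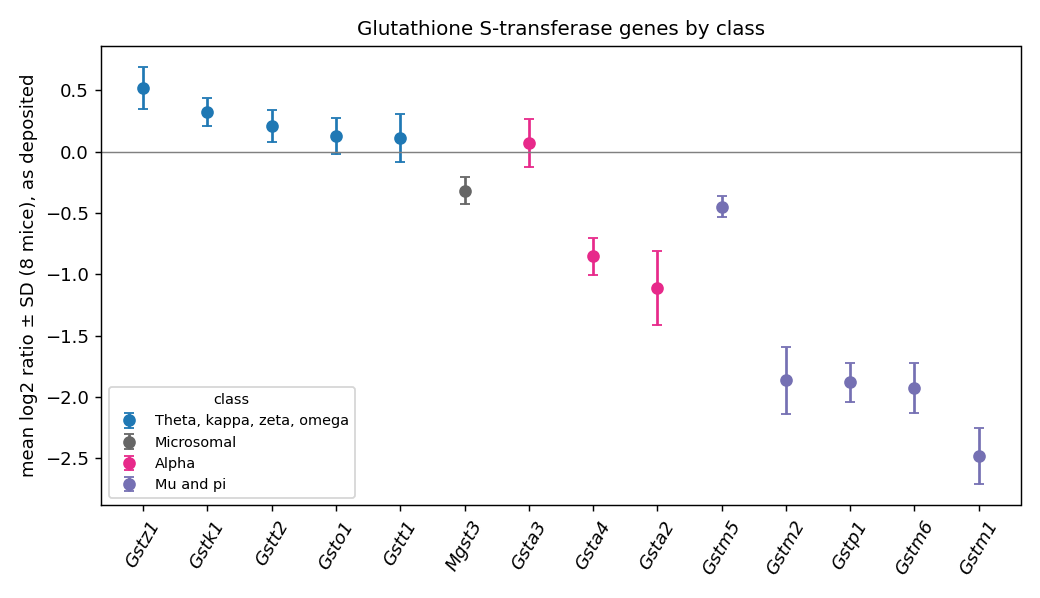
Mean deposited log2 ratio (vertical axis, no unit) of each tested glutathione S-transferase gene, with bars of 1 SD over 8 mice, coloured by class. Gstz1, Gstk1, Gstt2 and Gsto1 are called positive, from 0.13 to 0.52, while Mgst3 and 7 of the 8 alpha, mu and pi genes are below 0, down to -2.48 for Gstm1.

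The single glutathione synthesis gene of the rule lay on the side of Gstm1. Gss, glutathione synthetase, joins glycine to the dipeptide made by the glutamate-cysteine ligase (Entrez 14854). Its log2 ratios were -0.20, -0.26, -0.14 and -0.20 in the SY mice, and -0.49, -0.38, -0.26 and -0.26 in the TP mice. All 8 were negative, and the mean was -0.27 ± 0.11 (limma, adjusted p = 0.00017). Of 7 other genes tested from a list around glutathione (median -0.09), 3 were negative and 1 positive, against 25.4% and 18.0% of all features. The negative ones included the ligase subunits Gclm (-0.33 ± 0.14) and Gclc (-0.21 ± 0.20). The positive one was Mat1a, which makes S-adenosylmethionine (0.33 ± 0.30). That list also holds a folate enzyme and enzymes of the methionine cycle, Mat1a among them, which do not form glutathione. Among 5 genes listed under NADPH supply (median -0.23), transketolase Tkt (-0.46 ± 0.12), malic enzyme Me1 (-0.43 ± 0.19) and transaldolase Taldo1 (-0.23 ± 0.09) were negative. The other 2, Idh1 (0.11 ± 0.10) and Nnt (0.11 ± 0.11), were positive. Tkt and Taldo1 do not themselves form NADPH.

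Of 4 genes of sulfation tested 2 were called positive and 0 negative (0 also at an unadjusted p under 0.05), with a median of 0.14. Neither call held with the spread of control mice added. Over all features the share called positive was 18.0%. The sulfotransferase Sult3a1, left out by the rule and so not among the 4, lay farther from 0, at 0.92 ± 0.49 (limma, adjusted p = 0.000253). Sult1b1, which sulfates phenols and thyroid hormones, had log2 ratios from 0 to 0.68 with a median of 0.17, SY518Z again being the highest. It averaged 0.22 ± 0.23 (limma, adjusted p = 0.0196), and did not pass without SY521RL (0.19, adjusted p = 0.0524). Sult5a1 averaged 0.20 ± 0.19 (adjusted p = 0.0135) and is described with the identifier series below. Sult1d1, a mouse sulfotransferase of catecholamines, ranged from -0.26 to 0.38 and averaged 0.09 ± 0.22 (adjusted p = 0.279). Papss2, which makes the sulfate donor PAPS, averaged -0.03 ± 0.15 (adjusted p = 0.615). Sult2b1, which sulfates cholesterol, had values in the 4 SY mice only (-0.14, -0.20, -0.14 and -0.14) and was not tested. Its values were present on all 7 arrays coded c3z and blank on every array coded bl7, that of SY518Z included. Of 3 further genes of sulfate handling (median -0.17), the sulfate carrier Slc26a1 was positive (0.25 ± 0.17), and the nucleotidase Bpnt1 (-0.17 ± 0.07) and the arylsulfatase Arsa (-0.24 ± 0.08) were negative.

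The single glucuronosyltransferase measured, Ugt2b36, ranged from -0.49 to 0.14 with a median of -0.23. It was negative in 7 of 8 mice, all but SY518Z, and averaged -0.24 ± 0.21 (limma, adjusted p = 0.00946). The Ugt2b genes are close copies of each other, so its probe may also bind its neighbours' transcripts. Of 4 genes around the glucuronic acid donor (median -0.16), 3 were negative: Ugp2, which makes UDP-glucose (-0.46 ± 0.20), the transporter Slc35d1 (-0.17 ± 0.17) and the glucuronidase Gusb (-0.16 ± 0.14). Methyltransferases and genes of amino acid conjugation lay mostly on the positive side, on which 18.0% of all features were called. Of 6 methyltransferases tested 5 were positive and 1 negative (median 0.21), led by the indolethylamine methyltransferase Inmt (1.198 ± 0.36) and the nicotinamide methyltransferase Nnmt (0.61 ± 0.22). The methyltransferase list also holds genes outside drug conjugation. All 3 genes of amino acid conjugation were positive (median 0.30): Acsm3 (0.55 ± 0.15), the bile acid conjugating enzyme Baat (0.30 ± 0.10) and Glyat (0.27 ± 0.16).

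**Figure D2:**
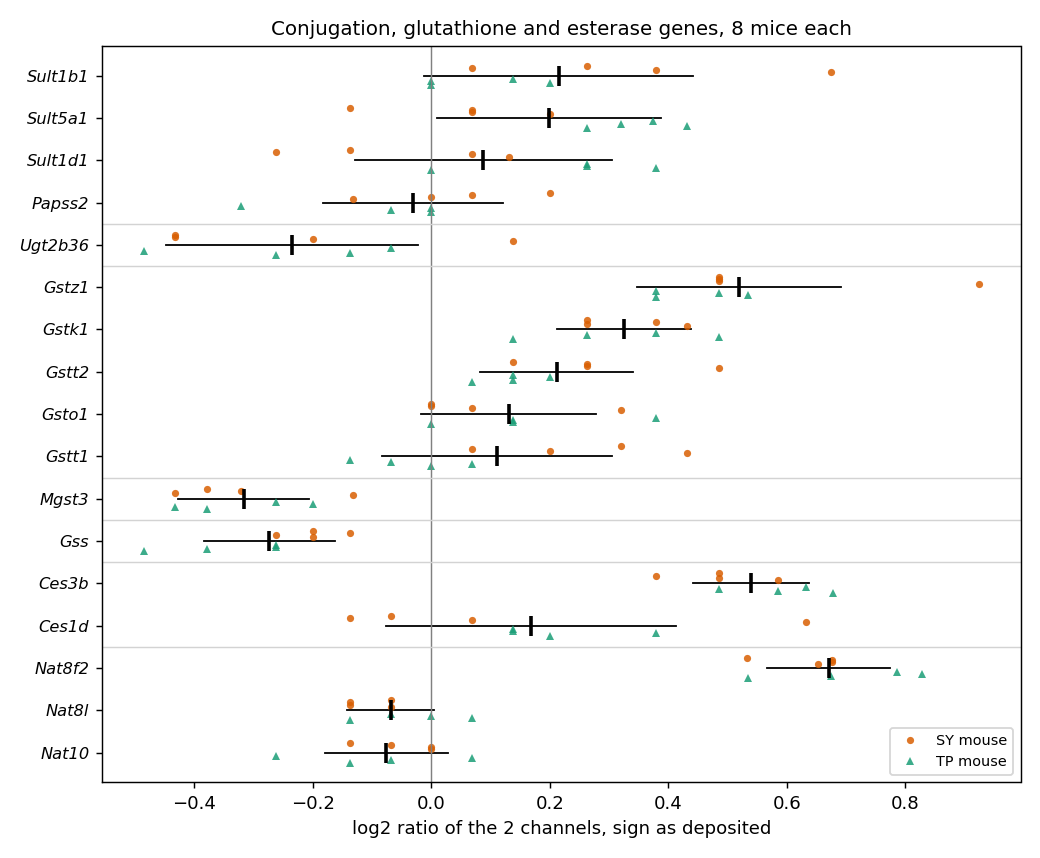
Deposited log2 ratio (horizontal axis, no unit) in each of 8 mice for the conjugation, glutathione and esterase genes, with circles for SY and triangles for TP mice, spread vertically where values tie. The black tick is the mean and the line 1 SD either way, and grey lines part the groups. Nat8f2, Ces3b, Gstz1, Gstk1 and Gstt2 lie above 0 in every mouse, and Mgst3 and Gss below 0.

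The cytosolic thioredoxin system was on the side of Gstm1, the negative side, on which 25.4% of all features were called. Of 6 genes named Txn 3 were called negative and 0 positive (limma; 1 positive at an unadjusted p under 0.05, Txn2 with p = 0.0307), with a median of -0.09. Txnrd1, the NADPH-dependent reductase of thioredoxin (Entrez 50493), had log2 ratios of -0.43, -0.07, -0.14 and -0.07 in the SY mice, and -0.38, -0.38, -0.68 and -0.54 in the TP mice. The values of the TP mice and SY518Z were lower than those of the other 3 SY mice. The mean was -0.33 ± 0.22 (limma, adjusted p = 0.00154). Its substrate Txn1 ranged from -0.38 to 0 with a median of -0.14 and averaged -0.17 ± 0.12 (adjusted p = 0.00524). Txnl1, a thioredoxin-like protein bound to the proteasome, ranged from -0.43 to 0 with a median of -0.26 and averaged -0.23 ± 0.14 (adjusted p = 0.00134). All 3 genes passed in TP mice alone (limma, adjusted p 0.00717 to 0.0287) and none in SY mice alone (0.1 to 0.143). Of all features 37.4% passed in TP mice alone and 24.9% in SY mice alone.

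The mitochondrial thioredoxin Txn2 averaged 0.08 ± 0.08 (limma, adjusted p = 0.066), and passed without TP4215 (adjusted p = 0.0461). Txnl4b lay at -0.01 ± 0.07 and Txndc11, a thioredoxin-domain protein of the endoplasmic reticulum, at 0.04 ± 0.14, neither called. Of 11 other genes tested from a list of thiol, peroxide and related genes 6 were negative and 0 positive (median -0.14), against 25.4% and 18.0% of all features. Farthest from 0 was ferritin Fth1 (-0.70 ± 0.14), an iron-storing protein and not a thiol or peroxide enzyme. The disulfide isomerases P4hb (-0.32 ± 0.17) and Pdia3 (-0.31 ± 0.20) came next.

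Peroxide-removing enzymes showed small values on both sides. Prdx4, the peroxiredoxin of the endoplasmic reticulum (Entrez 53381), had -0.07, -0.14, -0.26 and -0.20 in the SY mice, and -0.26, -0.14, -0.38 and -0.07 in the TP mice. All 8 were negative and the groups overlapped, with a mean of -0.19 ± 0.11 (limma, adjusted p = 0.00171). The cytosolic Prdx1 averaged 0.03 ± 0.10 (adjusted p = 0.585). Prdx2, abundant in red cells, averaged 0.09 ± 0.08 (adjusted p = 0.0468), but its 2 probes gave 0.19 ± 0.13 and -0.02 ± 0.06. It did not pass without SY518Z, SY522ROB, SY524ROB+L, TP4168, TP4205 or TP4215 (adjusted p 0.0609 to 0.122). Gpx1, the cytosolic selenium-dependent glutathione peroxidase, ranged from -0.14 to 0.26 around a mean of 0.01 ± 0.14 (adjusted p = 0.903). Catalase, Cat, the hydrogen peroxide enzyme of peroxisomes, ranged from -0.26 to 0 with a median of -0.07 and averaged -0.12 ± 0.09 (adjusted p = 0.0153). Of 9 other genes tested from a list of peroxisomal proteins and oxidases, which also holds the cytosolic Xdh (median 0.08), 4 were positive, such as the sarcosine oxidase Pipox (0.45 ± 0.09), and 3 negative, among them D-amino acid oxidase Dao (-1.29 ± 0.12) and Ehhadh of fatty acid oxidation (-0.36 ± 0.36).

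The superoxide dismutases stood on both sides of 0. Sod1, the cytosolic copper-zinc enzyme, ranged from 0 to 0.38 with a median of 0.20 and averaged 0.21 ± 0.13 (limma, adjusted p = 0.0017). Sod2 of mitochondria averaged 0.06 ± 0.10 (adjusted p = 0.204), and its 2 probes gave 0.04 and 0.07. The secreted Sod3 ranged from -0.37 to 0 with a median of -0.14 and averaged -0.16 ± 0.12 (adjusted p = 0.00515). Hmox1, heme oxygenase, which opens the heme ring and is abundant in macrophages that clear red cells (Entrez 15368), was the lowest of all 32 genes. Its log2 ratios were -0.63, -0.76, -0.43 and -0.54 in the SY mice, and -0.07, -0.07, -0.07 and -0.43 in the TP mice. Every mouse was negative, and 3 TP mice were within the rounding step. The mean was -0.37 ± 0.28 (adjusted p = 0.00235).

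**Figure D3:**
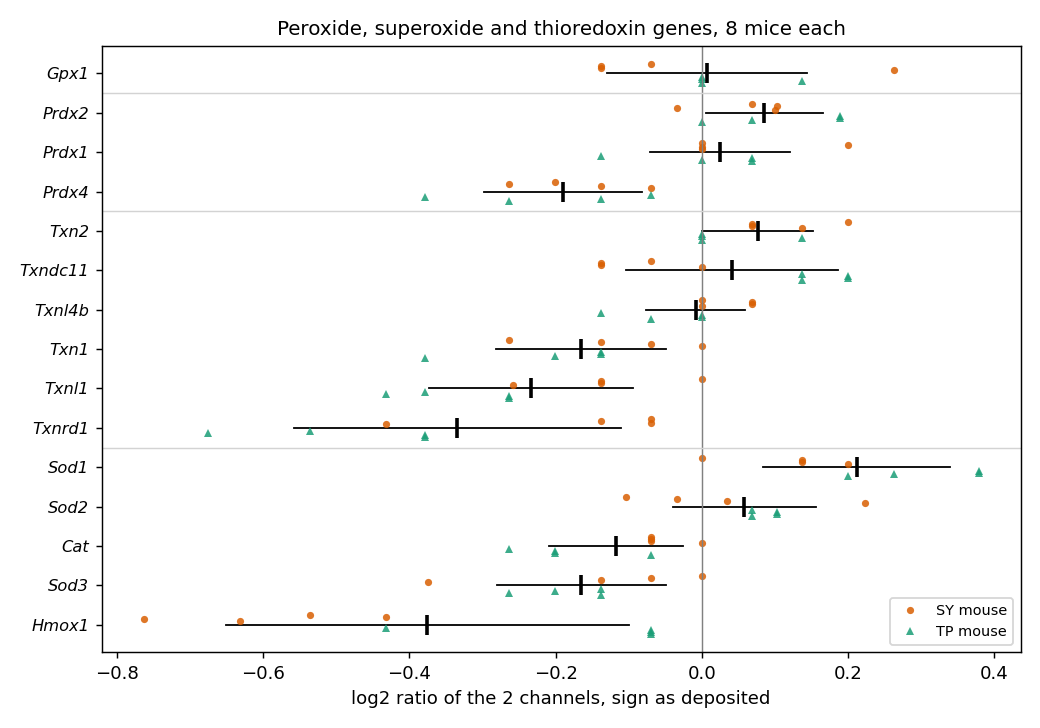
Deposited log2 ratio (horizontal axis, no unit) in each of 8 mice for the glutathione peroxidase, peroxiredoxin, thioredoxin, superoxide dismutase, catalase and heme oxygenase genes, drawn as in the plot of conjugation genes (circles SY, triangles TP, tick and line the mean and 1 SD). Hmox1, Txnrd1 and Prdx4 lie below 0 in every mouse. The 4 SY mice are lowest for Hmox1, with TP4215 level with SY522ROB, and 3 SY mice are highest for Txnrd1.

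Among the 32 genes 3 differed between SY and TP mice (9.38%; 5.70% of all 8348 features). None of the 3 was positive in SY minus TP (limma; 6 were positive and 5 negative at an unadjusted p under 0.05), against 1.29% of all features positive and 4.41% negative. Hmox1 averaged -0.59 ± 0.14 in SY and -0.16 ± 0.18 in TP mice (SD, n = 4 each), a difference of -0.43 (adjusted p = 0.0252). The lowest TP mouse, TP4215, equalled the highest SY mouse, SY522ROB, at -0.43. Sult5a1 had log2 ratios of 0.20, 0.07, 0.07 and -0.14 in SY mice, and 0.26, 0.43, 0.32 and 0.37 in TP mice. The groups did not overlap, and the difference was -0.30 (adjusted p = 0.0384). Txndc11 had 0, -0.14, -0.14 and -0.07 in SY mice, and 0.14, 0.20, 0.20 and 0.14 in TP mice. Again the groups did not overlap, and the difference was -0.25 (adjusted p = 0.0231).

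With 7 mice most of these calls were not made. All 3 were lost without SY521RL, SY522ROB, SY524ROB+L, TP4168 or TP4205 (adjusted p 0.0545 to 0.115), and Sult5a1 also without TP4215 (adjusted p = 0.0848). The differences themselves stayed near their size in those fits, from -0.37 to -0.48 for Hmox1, -0.24 to -0.26 for Txndc11 and -0.23 to -0.31 for Sult5a1, and the calls over all features numbered 33 to 252, against 476 with all 8 mice. The calls were also lost on the first arrays of the mice, where 0 of 8175 features passed. Sult5a1 was further lost on the second arrays (adjusted p = 0.0838) and after quantile normalization (adjusted p = 0.0585). Every TP array is coded bl7 and every SY array c3z, apart from SY518Z, which has an array of each code, so code and series can hardly be told apart. The nearest miss was Gstt1, at 0.26 ± 0.16 in SY and -0.03 ± 0.09 in TP mice, a difference of 0.29 (adjusted p = 0.0524). It passed under 6 alternatives, with adjusted p 0.0263 to 0.0494, the fit of 16 arrays blocked by mouse among them (0.0263), and in SY mice alone Gstt1 passed against 0 (adjusted p = 0.0465). Txnrd1 also had a positive difference, at -0.18 ± 0.17 in SY and -0.49 ± 0.14 in TP mice, a difference of 0.32 that missed the threshold (adjusted p = 0.0643). It passed with the 16 arrays blocked by mouse (adjusted p = 0.0267), with robust moderation (0.0483) and without the bl7 array of SY518Z (0.0329). Without SY518Z it was 0.40 and passed (adjusted p = 0.0121), as did Txnl1 (0.24, adjusted p = 0.0319), Sult1d1 (-0.34, adjusted p = 0.0431) and Ces1d (-0.26, adjusted p = 0.0422). Within the series, Hmox1 passed against 0 in SY mice alone (limma, adjusted p = 0.00785) and not in TP mice alone (adjusted p = 0.152). Sult5a1 passed in TP mice alone (adjusted p = 0.00646) and not in SY mice alone (adjusted p = 0.571). Txndc11 likewise passed in TP mice alone (adjusted p = 0.0116) and not in SY mice alone (adjusted p = 0.126). Txnrd1 passed in TP mice alone (adjusted p = 0.0075) and not in SY mice alone (adjusted p = 0.131).

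**Figure D4:**
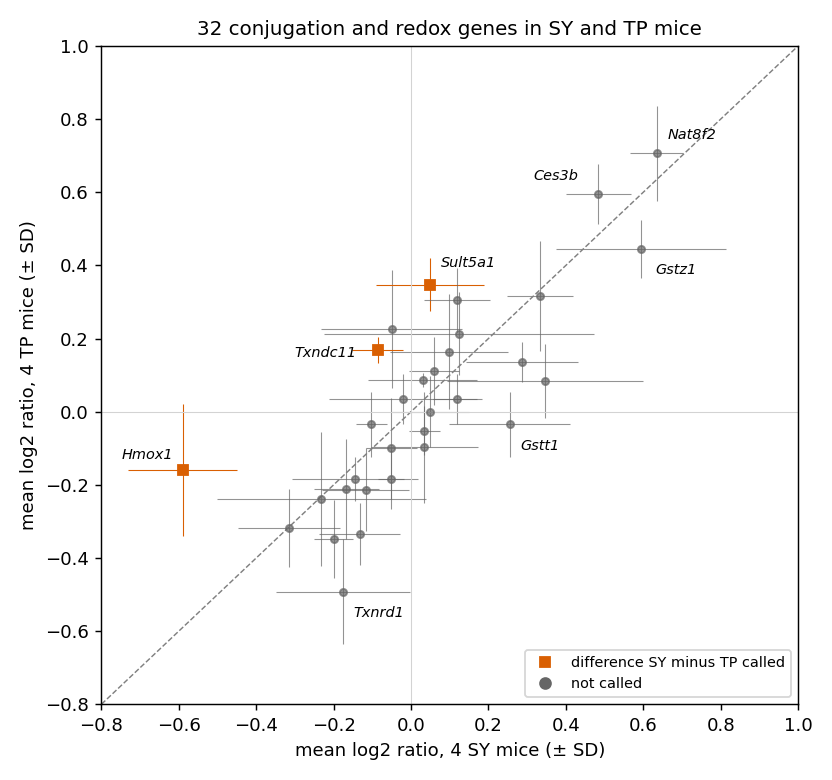
Mean deposited log2 ratio of each of the 32 tested genes in the 4 SY mice (horizontal) and the 4 TP mice (vertical), with bars of 1 SD. The dashed line marks equal means. Squares are the called differences, Hmox1 (-0.59 in SY and -0.16 in TP), Sult5a1 (0.05 and 0.35) and Txndc11 (-0.09 and 0.17).

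Markers of other liver cells were read beside all features, of which 18.0% were called positive and 25.4% negative. Of 6 macrophage markers tested 2 were negative and 1 positive, from -0.65 for Cd68 to 0.17 for Cd163. Between the series, 1 of the 6 passed, Adgre1 at -0.18 in SY and 0.13 in TP mice (adjusted p = 0.0483 by limma). Of all features 5.70% passed between the series. Marco was at -0.50 in SY and 0.17 in TP mice (0.0512) and Cd68 at -0.75 and -0.54 (0.267). Lgals3 was at -0.59 in SY and -0.57 in TP mice (0.949), Cd163 at 0.20 and 0.15 (0.677), and Clec4f at -0.05 in both. The part of macrophages in the Hmox1 values was not tested. Of 4 erythroid markers 1 was positive, Epor at 0.10, and Alas2, Car2 and Slc4a1 lay between -0.06 and 0.01, not called. Stellate cell markers were negative in 5 of 9 (median -0.12), lymphocyte markers in 5 of 7 (median -0.10), endothelial markers in 2 of 5 (median -0.09) and bile duct markers in 2 of 4 with 1 positive (median -0.17). Hepatocyte markers had 2 of 6 on each side (median 0.03), Fgb at 0.23 and Apob at 0.12 being positive and Trf at -0.41 and Apoa1 at -0.52 negative. Their part in the values above was not tested either.

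Promoter sequences were searched for TGACNNNGC on both strands, the core of the antioxidant response element, in the 250 bases before each annotated start (RefSeq, build GRCm38.p6). Of the 33 genes 27 were in the promoter table, and 4 held a match (14.81%), against 11.52% of all 27025 genes there. Hmox1, Txnl1, Sod3, Gstt2, Ces1d and Nat8l were not in it and could not be searched. Matches stood before 1 of 7 genes called negative, 1 of 9 called positive and 2 of 10 not called, and the untested Sult2b1 had none. The 4 matches are shown with up to 25 bases on either side, 5′ to 3′ on the gene's strand, in capitals, because they are the only matches among the 27 genes searched. A match is a run of letters, not evidence of binding. The windows lie at chr10:82859089-82859147 on the plus strand for Txnrd1 (negative, -0.33), chr16:90220681-90220739 on the plus strand for Sod1 (positive, 0.21), chr4:116685441-116685499 on the plus strand for Prdx1 (not called) and chr16:11134740-11134782 on the minus strand for Txndc11 (not called).
Txnrd1: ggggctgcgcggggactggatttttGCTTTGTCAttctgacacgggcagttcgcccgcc
Sod1: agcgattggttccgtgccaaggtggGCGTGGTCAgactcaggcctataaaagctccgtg
Prdx1: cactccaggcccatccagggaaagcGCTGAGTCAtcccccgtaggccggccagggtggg
Txndc11: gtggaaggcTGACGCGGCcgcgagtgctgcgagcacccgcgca
The matches begin 92, 56, 133 and 241 bases before an annotated start of Txnrd1, Sod1, Prdx1 and Txndc11, in that order, and read on the opposite strand in all but Txndc11.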

How the data were processed

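The authors deposited log2 ratios of the 2 dye channels of 16 arrays (9596 probes); no header or label states the normalization or the direction of the ratio. In size, each value was the log2 of a fold difference with 1 decimal (10 times that fold lay within 0.00219 of a whole number). All values were used as deposited, and 31.8% were 0. Gene names came from the annotation of the array platform (7407 with 1 symbol, 437 with several, 1752 with none). Probes of a gene, then the 2 arrays of each mouse, were averaged. Features with values in fewer than 6 mice were left out (575), and the mean was tested against 0, or SY minus TP, with limma 3.58.1 in R 4.3.3 (lmFit, eBayes, two-sided, Benjamini-Hochberg over 8348 features). The genes, lists and role groups were chosen with earlier results of these data known. Values in every mouse were given for up to 12 called genes with one sign in all mice, of which there were 10, and for genes called between SY and TP. Each role names up to 6 genes and each companion list up to 3 called genes, those farthest from 0, except that every called gene of the NADPH list is named. Leaving out a mouse kept genes with values in 5 of the other 7. Alternatives covered scaling, centring, filters, probes, duplicate arrays, moderation, a minimum fold, control spread, the series and each mouse. Figures were drawn with matplotlib 3.10.9.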

Additional observations from a re-analysis of the deposited data

Results flagged for a closer look

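The mouse SY518Z stood apart from the other 7 by Dixon's criterion for Gstz1 (0.92, next highest 0.54) and Gstt2 (0.49, next highest 0.26); chance alone gives such a gap in about 1 group in 20, and 32 genes were examined. Between SY and TP mice the difference itself passed for Hmox1 (-0.43), Sult5a1 (-0.30) and Txndc11 (-0.25).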

How the results depend on the processing

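Against 0, 10 positive and 10 negative genes became 3 and 0 with a minimum difference of 1.2-fold (the 3 being Nat8f2, Ces3b and Gstz1), 6 and 6 with the spread of 7 control mice added, and 6 and 5 in SY mice alone; over all features the counts were 123, 1811 and 2159 against 3622. Every other alternative kept both counts within 1.5 times, leaving out each mouse included. Prdx2 turned to -0.0172 when single probes were tested, a setting that keeps 1 probe per gene. Its other probe, not kept there, gave 0.19. In SY minus TP, the 0 positive genes became 1 after scaling to a common SD, with single probes or on the second arrays, 2 after quantile normalization, robust moderation or blocking 16 arrays by mouse, 3 without the bl7 array of SY518Z, and 0 to 2 on leaving out each mouse. The 3 negative genes became 0 on the first arrays and 0 to 5 on leaving out each mouse. Over all features 476 differed, against 0 on the first and 228 on the second arrays, 940 without that bl7 array, and 33 (without SY522ROB) to 1275 (without SY518Z) on leaving out each mouse. The cause of these changes was not tested. The rounding step of 0.14 limits all values near 0, and signal over background was not analysed here.

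Treated and control RNA were compared within each array. No pairing of single treated and control mice was possible, because the controls have no samples of their own.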

Other observations

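SY518Z was alone the highest mouse for 11 of the 32 genes, against 0 to 4 genes for each other mouse, and the lowest for 1. The same count was not made over all features, so it is not shown to be particular to these genes. The median of the 32 genes was 0.12 in SY518Z and -0.05 to 0.07 in the others, while the median of all features was -0.07 in SY518Z. Sult1b1 and Sult1d1 are neighbouring genes with no protein-coding gene between them, and neither passed between the series. Sult1b1 averaged 0.35 in SY and 0.08 in TP mice (adjusted p = 0.157, limma), a difference of 0.26 that was 0.15 without SY518Z (adjusted p = 0.216). Sult1d1 averaged -0.05 in SY and 0.23 in TP mice (adjusted p = 0.111), and its difference of -0.28 passed without SY518Z (adjusted p = 0.0431) or TP4163 (adjusted p = 0.0454).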
